A study of Marchantia polymorpha and Arabidopsis thaliana with 54 samples.

Results

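The 9 genes described here encode the enzymes that open and close the pool of abscisic acid (ABA), the stress hormone of land plants, in Arabidopsis thaliana seedlings. They are the 5 NCED genes NCED2 (AT4G18350), NCED3 (AT3G14440), NCED5 (AT1G30100), NCED6 (AT3G24220) and NCED9 (AT1G78390) and the 4 genes CYP707A1 (AT4G19230), CYP707A2 (AT2G29090), CYP707A3 (AT5G45340) and CYP707A4 (AT3G19270), taken by locus identifier from a table of 27655 genes. NCED enzymes, the 9-cis-epoxycarotenoid dioxygenases, cleave a carotenoid in the plastid to give the precursor of ABA, and this is the step usually regarded as limiting for synthesis. CYP707A enzymes are cytochrome P450 ABA 8'-hydroxylases that start the main route of ABA breakdown. In Arabidopsis, NCED3 is known for its induction by drought, NCED6 and NCED9 for ABA synthesis in seeds, CYP707A2 for the loss of ABA during seed imbibition, and CYP707A1 and CYP707A3 for ABA breakdown in vegetative tissue. ABA itself was not measured in the data used here.

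RNA of whole seedlings grown for 7 days on sucrose medium in continuous light was sequenced in 18 libraries. The heat libraries labelled eTK (n = 3) and the control libraries labelled eTK (n = 6) carry knockouts of HSFA1A, HSFA1B and HSFA1D, which encode the master activators of the heat shock response, and the heat libraries of Col-0 (n = 3) and control libraries of Col-0 (n = 6) are wild type. Heat was 37 °C for 1 h, and control seedlings stayed at 22 °C. Control libraries came in both batches named in the labels, with replicates 4 to 6 in batch 2 and replicates 1 to 3 in batch 1, whereas heat libraries came in batch 1 alone. Marchantia samples of the series were not analysed here. Whether replicates were grown apart is not in the labels, and the p-values refer to the spread among the libraries, which may be technical.

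The libraries held 58370609 to 110875442 counts assigned to genes. Levels below are in CPM, a gene's count relative to the size of its library, scaled by TMM, a factor that corrects for genes taking up large parts of a library, which was 0.642 to 0.669 in Col-0 heat libraries and 1.01 to 1.16 in the others. With library size alone, the median log2 change of all genes in Col-0 heat was -0.75, against -0.04 with TMM, so the direction of small heat changes in Col-0 rests on this scaling. The calls then split into 1861 higher and 15306 lower for heat in Col-0 (7091 and 7357 with TMM), 14323 and 1024 for the difference between the heat responses of the lines (2848 and 2859), and 15271 and 1668 for eTK against Col-0 in heat (5285 and 5235). As a check of the labels, HSFA1B was lower in eTK controls than in Col-0 controls by a log2 change of -3.09 ± 0.14 and HSFA1D by -1.39 ± 0.08, whereas HSFA1A was higher by 0.96 ± 0.12 (SE). The labels do not describe the alleles, so transcript levels check the label only in part, and the cause of the higher HSFA1A was not tested. The name "eTK" is used here for the libraries so labelled. HSFA1E, the remaining member of that family, differed by 0.21 ± 0.13 (edgeR adjusted p = 0.27). Heat raised HSFA2, a heat shock factor induced by heat, by 5.85 ± 0.35 in eTK and 13.88 ± 0.39 in Col-0, and the disaggregase gene HSP101 by 1.11 ± 0.14 in eTK and 10.84 ± 0.17 in Col-0. The 5 leaf markers summed to 22600 to 24400 CPM in eTK heat, 25900 to 37700 in eTK control, 25500 to 30600 in Col-0 heat and 19000 to 35500 in Col-0 control. The summed markers of root, of vascular and of guard cells were each above 0 in every group. In whole seedlings, fewer cells of a type and less RNA per cell cannot be told apart.

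All 9 genes are annotated in TAIR10.1 without an overlapping gene. NCED3 lies on the minus strand at chr3:4831286-4834015 and, like the other NCED genes, has 1 coding exon. CYP707A1 lies at chr4:10521259-10523961 on the plus strand with 7 coding exons, CYP707A3 at chr5:18368532-18371021 on the minus strand with 6, and CYP707A4 at chr3:6673689-6676521 on the minus strand with 9. CYP707A1 and CYP707A3 share 82.5% of aligned coding bases, and their longest identical coding run is 44 bases, while the other CYP707A pairs share 62.6% to 66.0%. NCED pairs share 62.3% to 72.4%, with NCED3 and NCED9 the closest pair. The 250 bases before the annotated starts of CYP707A1 and CYP707A3 are shown because these closest relatives responded to heat differently. Capitals mark exact runs of at least 10 bases found in both, read 5′ to 3′ on the gene's strand from the RefSeq TAIR10.1 genome (chr4:10521009-10521258, plus strand, and chr5:18371022-18371271, minus strand).
CYP707A1: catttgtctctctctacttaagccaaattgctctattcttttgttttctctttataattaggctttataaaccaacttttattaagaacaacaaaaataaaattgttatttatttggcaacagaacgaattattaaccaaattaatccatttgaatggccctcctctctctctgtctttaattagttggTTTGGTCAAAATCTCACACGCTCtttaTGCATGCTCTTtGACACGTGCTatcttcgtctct
CYP707A3: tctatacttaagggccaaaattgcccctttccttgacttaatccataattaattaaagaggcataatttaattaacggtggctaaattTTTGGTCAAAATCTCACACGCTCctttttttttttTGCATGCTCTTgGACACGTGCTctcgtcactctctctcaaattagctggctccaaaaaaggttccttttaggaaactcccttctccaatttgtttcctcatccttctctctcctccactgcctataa
The runs are 23, 11 and 10 bases long and stand in the same order in both promoters. Only the first is longer than runs shared by other member pairs, such as NCED5 and CYP707A4 (11 bases) or NCED2 and NCED3 (10 bases). The 10-base run holds the G-box CACGTG, which begins 20 bases before the start of CYP707A1 and 113 bases before that of CYP707A3. Searched on both strands, CACGTG occurs in 6.49% of 27443 promoters of this length, and in 3 of the 9 members (NCED9, CYP707A1 and CYP707A3). Its core ACGTG, the core of the ABA-responsive element, which every CACGTG contains, occurs in 22.9% of promoters and in 4 members, the fourth being CYP707A4. The heat shock element pair GAANNTTC occurs in 9.55% of promoters and in 0 of the 9 windows. These matches describe letters in this window only.

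Of the 9 genes, 8 passed the filter on low counts. NCED6 had 0 counts in all 18 libraries. NCED5 had 0 to 14 counts and NCED2 had 2 to 42 counts per library, so both are near the limit of detection. Per kilobase of exon, the order of mean levels in eTK heat was CYP707A3 (37.3 CPM per kb), NCED3 (12.2), CYP707A1 (5.12) and CYP707A2 (0.505), with the others below 0.1. In Col-0 heat it was CYP707A3 (17.2), NCED3 (9.64), CYP707A4 (2.75), CYP707A1 (1.78), NCED9 (0.492) and CYP707A2 (0.391), and the last pair lie within the spread of NCED9. In Col-0 control it was CYP707A1 (2.75), CYP707A3 (1.04), CYP707A2 (0.998) and NCED3 (0.698), where CYP707A3 and CYP707A2 do not differ beyond their spread. In eTK control it was CYP707A1 (3.74), NCED3 (2.68), CYP707A2 (1.13) and CYP707A3 (0.857), so CYP707A1 had the highest mean in controls and CYP707A3 in heat in both lines. The lower ranks in controls depend on the batch: in Col-0 control NCED3 was at 0.527 in batch 2 and 0.868 in batch 1, against 1.31 and 0.763 for CYP707A3 and 1.26 and 0.737 for CYP707A2, which places NCED3 second in batch 1. In eTK control CYP707A2 was above CYP707A3 in both batches.

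**Figure D1:**
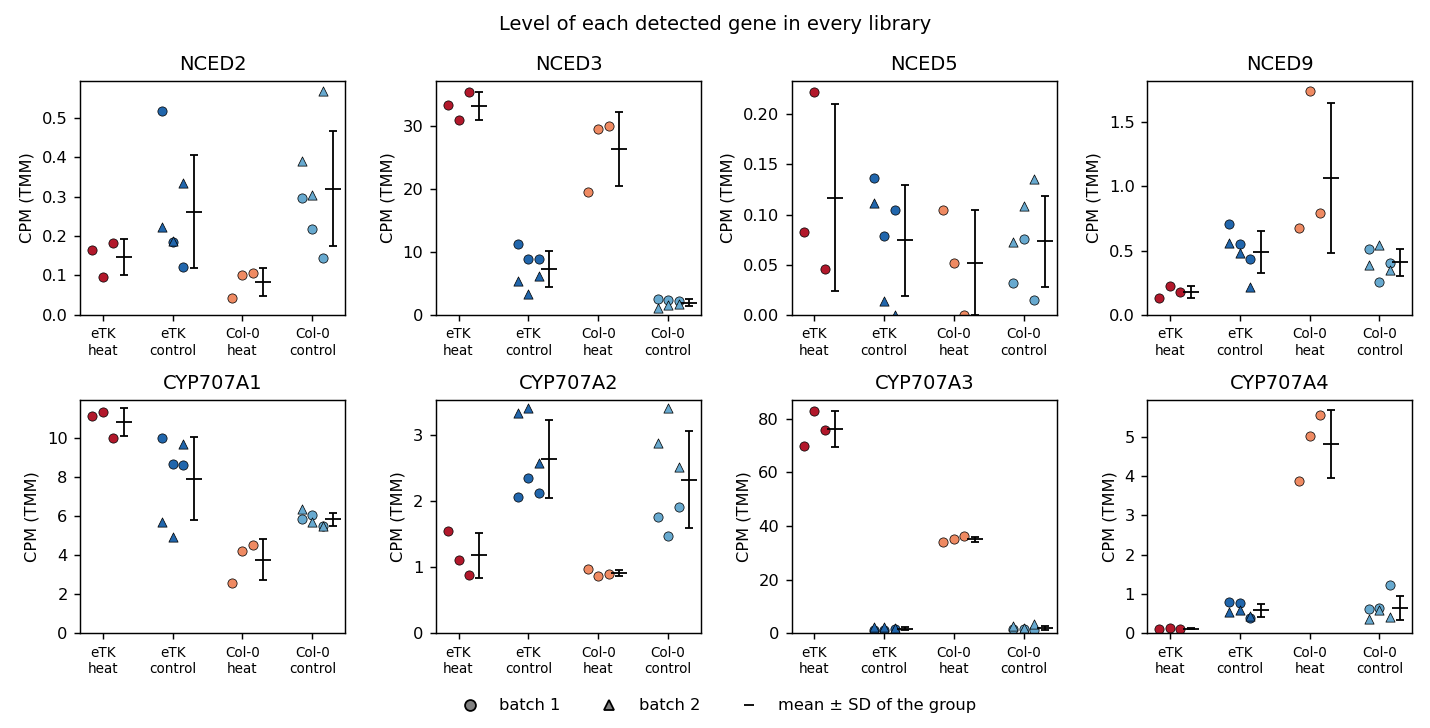
CPM (TMM-scaled, linear axes from 0) of the 8 detected genes in each of the 18 libraries, by group, with circles for batch 1, triangles for batch 2 and a bar for the group mean ± SD. CYP707A3 and NCED3 are high in all heat libraries of both lines, and CYP707A4 is high in the 3 Col-0 heat libraries, at 3.87 to 5.54 CPM.

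Heat raised NCED3 in both lines, and by less in eTK, whose controls already held more of it. NCED3 had 33.3, 31.0 and 35.4 CPM in eTK heat libraries, against 11.3, 8.91 and 8.87 CPM in batch 1 and 5.32, 3.28 and 6.14 CPM in batch 2 of eTK controls. In Col-0 it had 19.5, 29.5 and 30.0 CPM in heat, against 2.54, 2.40 and 2.17 CPM in batch 1 and 1.15, 1.53 and 1.65 CPM in batch 2 of controls. No 2 of the 4 groups overlapped. The log2 change with heat was 1.83 ± 0.18 in eTK (edgeR adjusted p = 1.28e-07) and 3.40 ± 0.19 in Col-0 (adjusted p = 2.81e-11), and the difference of these changes was -1.57 (adjusted p = 8.56e-05). With library size alone the Col-0 change was 2.69 and the difference of changes -0.94 (edgeR adjusted p = 0.00233). In controls NCED3 was higher in eTK by 1.91 ± 0.15 (adjusted p = 2.12e-08), and this held within batch 2 (1.77) and within batch 1 (2.03). In heat the lines differed by 0.34 ± 0.19 (adjusted p = 0.162), which missed the threshold, although the 3 eTK values all lay above the 3 Col-0 values. An exact two-sided permutation test of 3 against 3 libraries gave p = 0.1 there, the smallest it allows, and with library size alone the difference was 0.97 (edgeR adjusted p = 0.000179).

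NCED9 moved in opposite directions in the lines, at low counts. It had 0.132, 0.222 and 0.181 CPM in eTK heat, against 0.215 to 0.706 CPM in eTK control, and 0.673, 1.74 and 0.792 CPM in Col-0 heat, against 0.252 to 0.545 CPM in Col-0 control. The eTK ranges overlapped slightly and the Col-0 ranges did not. The log2 change was -1.51 ± 0.45 in eTK (edgeR adjusted p = 0.00819) and 1.31 ± 0.40 in Col-0 (adjusted p = 0.00844), with a difference of -2.82 (adjusted p = 0.00103). The Col-0 rise rests on 1 library: without Col-0 heat replicate 2 it was 0.77 (adjusted p = 0.127), and with library size alone 0.60 (adjusted p = 0.189). The 6 seed markers (oleosin, storage protein and EM genes) summed to 32.4, 19.3 and 11.1 CPM in eTK heat, 6.77 to 60.8 CPM in eTK control, 30.6, 118 and 0.29 CPM in Col-0 heat and 0.35 to 3.03 CPM in Col-0 control. Col-0 heat replicate 2 was thus highest in both NCED9 and seed markers, while replicate 3 had the lowest seed marker sum and 0.792 CPM of NCED9. None of the 6 was at 0 in all 18 libraries, and their part in the result was not tested.

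NCED2, which encodes a less studied isoform, had 0.165, 0.0949 and 0.181 CPM in eTK heat, against 0.122 to 0.516 CPM in eTK control, and 0.0420, 0.102 and 0.106 CPM in Col-0 heat, against 0.145 to 0.567 CPM in Col-0 control. It fell in Col-0 by a log2 change of -1.70 ± 0.64 (edgeR adjusted p = 0.0273), and had -0.61 ± 0.53 in eTK (adjusted p = 0.346). The Col-0 call was lost without Col-0 heat replicate 1 (-1.36, adjusted p = 0.116) and within batch 1 (-1.44, adjusted p = 0.0899). NCED5 had 0.0453 to 0.222 CPM in eTK heat and 0 to 0.136 CPM in eTK control, with 0 to 0.105 CPM in Col-0 heat and 0.0145 to 0.135 CPM in Col-0 control, and a difference was not detectable at this depth. Summed over the NCED genes, the level was 33.7 ± 2.17 CPM in eTK heat (SD, n = 3), 8.14 ± 3.12 CPM in eTK control (n = 6), 27.5 ± 6.27 CPM in Col-0 heat (n = 3) and 2.71 ± 0.46 CPM in Col-0 control (n = 6). NCED3 made up 98.7%, 89.0%, 95.7% and 69.3% of that sum in the same order of groups. The control means pool the batches: the share was 75.2% to 81.5% in batch 1 and 57.3% to 61.4% in batch 2 of Col-0 controls. In eTK controls it was 89.3% to 93.1% in batch 1 and 82.7% to 91.8% in batch 2.

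CYP707A3 had the largest heat rise of the 9 genes in both lines, and it was larger in eTK. It had 69.8, 83.0 and 75.6 CPM in eTK heat, against 1.19 to 2.26 CPM in eTK control, and 34.1, 35.0 and 36.1 CPM in Col-0 heat, against 1.39 to 3.32 CPM in Col-0 control. Heat libraries were far above controls in each line, and every eTK heat library was above every Col-0 heat library. The log2 change was 5.84 ± 0.14 in eTK (edgeR adjusted p = 7.58e-16) and 4.46 ± 0.14 in Col-0 (adjusted p = 3.27e-15), a difference of 1.38 (adjusted p = 7.89e-06). In heat CYP707A3 was higher in eTK by 1.12 ± 0.14 (adjusted p = 2.47e-06), while in controls the lines differed by -0.26 ± 0.11 (adjusted p = 0.09).

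CYP707A4, the least abundant of the family in eTK heat, moved in opposite directions in the lines. It had 0.0988, 0.127 and 0.121 CPM in eTK heat, against 0.401 to 0.801 CPM in eTK control. In Col-0 it had 3.87, 5.02 and 5.54 CPM in heat, against 0.366 to 1.22 CPM in control. Heat and control ranges were apart in each line, and the controls of the lines overlapped. The log2 change was -2.60 ± 0.38 in eTK (edgeR adjusted p = 1.55e-05) and 2.68 ± 0.28 in Col-0 (adjusted p = 1.74e-07). The difference was -5.28 (adjusted p = 3.77e-08), the largest among the members, and it was -4.64 with library size alone. In heat CYP707A4 was lower in eTK by -5.36 ± 0.40 (adjusted p = 2.63e-09), and the 3 eTK libraries held 6 to 8 counts each.

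CYP707A1 differed between the lines mainly in heat. It had 11.1, 11.3 and 10.0 CPM in eTK heat, against 4.94 to 9.96 CPM in eTK control, and 2.56, 4.20 and 4.51 CPM in Col-0 heat, against 5.47 to 6.34 CPM in Col-0 control. Col-0 heat libraries were all below Col-0 controls, and eTK heat libraries were all just above eTK controls. The log2 change was 0.36 ± 0.20 in eTK (edgeR adjusted p = 0.132) and -0.74 ± 0.22 in Col-0 (adjusted p = 0.0058), a difference of 1.10 (adjusted p = 0.00556). In heat it was higher in eTK by 1.53 ± 0.23 (adjusted p = 2.38e-05). In controls it was higher in eTK by 0.43 ± 0.15 (adjusted p = 0.0448), but this was 0.21 within batch 2 (adjusted p = 0.624) and 0.65 within batch 1 (adjusted p = 0.00904), and the call was lost without 1 library in 12 of 18 cases. Summed markers of 2 cell types were also low in Col-0 heat, and those of vascular cells were not. The 5 guard cell markers summed to 63.1 to 68.4 CPM in eTK heat, 55.5 to 77.3 in eTK control, 25.9 to 37.3 in Col-0 heat and 56.3 to 85.4 in Col-0 control, and the 6 root markers to 83.8 to 94.6, 98.3 to 107, 50.6 to 61.2 and 91.3 to 119 CPM in the same order. The 6 vascular markers summed to 240 to 275, 179 to 213, 174 to 187 and 148 to 247 CPM. Within the root list, COBL9, SCR, SHR and EXPA7 fell with heat in both lines, and MYB36 rose in both. None of these markers was at 0 in all 18 libraries, and their part in the CYP707A1 result was not tested.

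CYP707A2 fell with heat in both lines. It had 1.55, 1.11 and 0.876 CPM in eTK heat, against 2.06 to 3.41 CPM in eTK control, and 0.967, 0.871 and 0.897 CPM in Col-0 heat, against 1.48 to 3.41 CPM in Col-0 control. All heat libraries of a line were below all of its controls. The log2 change was -0.83 ± 0.20 in eTK (edgeR adjusted p = 0.00171) and -0.98 ± 0.21 in Col-0 (adjusted p = 0.00054), and the difference of 0.15 missed the threshold (adjusted p = 0.725), though with library size alone it was 0.78 (adjusted p = 0.0173). In heat the lines differed by 0.36 ± 0.23 (adjusted p = 0.197), and by 1.00 with library size alone (adjusted p = 0.000783).

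**Figure D2:**
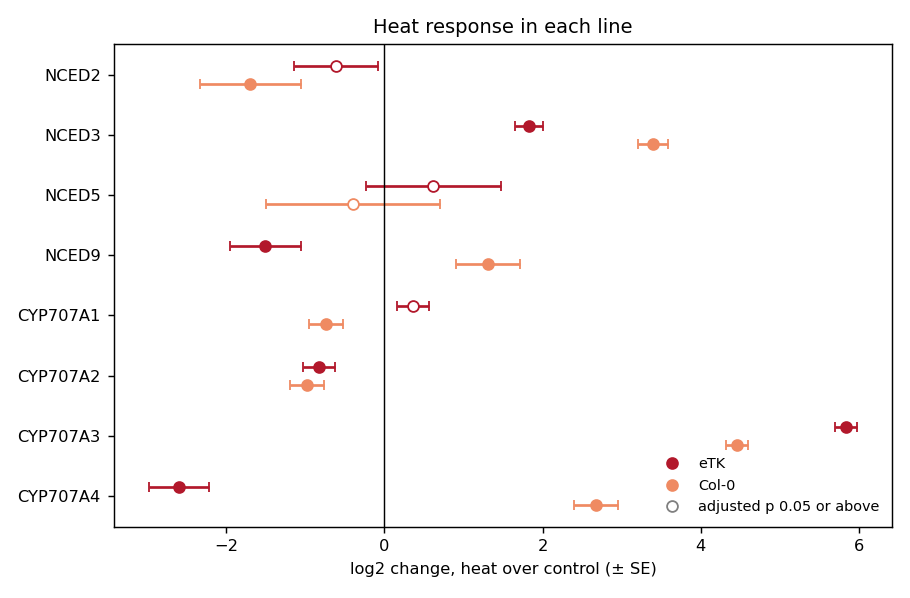
Log2 change (heat over control, ± SE from edgeR) of the 8 tested genes, with eTK above Col-0 for each gene and open symbols where the adjusted p was 0.05 or above. NCED9 and CYP707A4 lie on opposite sides of 0 in the lines, and CYP707A3 is at 5.84 in eTK and 4.46 in Col-0.

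In all, 5 of 8 tested members changed with heat in eTK, with NCED3 and CYP707A3 higher and NCED9, CYP707A2 and CYP707A4 lower, where 55.7% of all tested genes were called (27.0% higher and 28.7% lower). In Col-0 7 of 8 changed, with NCED3, NCED9, CYP707A3 and CYP707A4 higher and NCED2, CYP707A1 and CYP707A2 lower, where 63.7% of all genes were called (31.2% higher and 32.4% lower). The heat responses of the lines differed in 5 of 8 members, with CYP707A1 and CYP707A3 higher and NCED3, NCED9 and CYP707A4 lower (25.1% of all genes, 12.5% higher and 12.6% lower). In controls 2 of 8 differed between the lines, both higher in eTK (27.2% of all genes, 13.4% higher and 13.8% lower), and in heat 4 of 8, 2 in each direction (46.4% of all genes, 23.3% higher and 23.1% lower). With 8 genes tested, these counts are read as descriptions of single genes and not as a result about the group.

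The shares of CYP707A3, CYP707A1 and CYP707A2 in all CYP707A transcripts did not overlap between heat and control libraries in either line. The family summed to 88.2 ± 6.65 CPM in eTK heat (SD, n = 3), 12.9 ± 1.31 CPM in eTK control (n = 6), 44.6 ± 2.82 CPM in Col-0 heat (n = 3) and 10.9 ± 1.14 CPM in Col-0 control (n = 6). CYP707A3 made up 86.2% of it in eTK heat, 13.9% in eTK control, 78.8% in Col-0 heat and 19.1% in Col-0 control. CYP707A1 made up 12.3%, 60.6%, 8.36% and 53.8% in the same groups. The control means pool the batches, while heat libraries are of batch 1. In eTK controls the CYP707A3 share was 8.52% to 11.6% in batch 1 and 13.4% to 20.1% in batch 2. The CYP707A1 share there was 65.8% to 71.1% and 44.1% to 66.1%. In Col-0 controls the shares were 13.9% to 17.7% and 16.2% to 28.3% for CYP707A3, and 54.8% to 61.0% and 46.8% to 51.0% for CYP707A1. CYP707A4 made up 0.12% to 0.14% in eTK heat, against 2.94% to 5.83% in eTK control, and 9.32% to 11.8% in Col-0 heat, against 2.94% to 12.2% in Col-0 control, where the ranges overlapped through Col-0 control replicate 3.

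**Figure D3:**
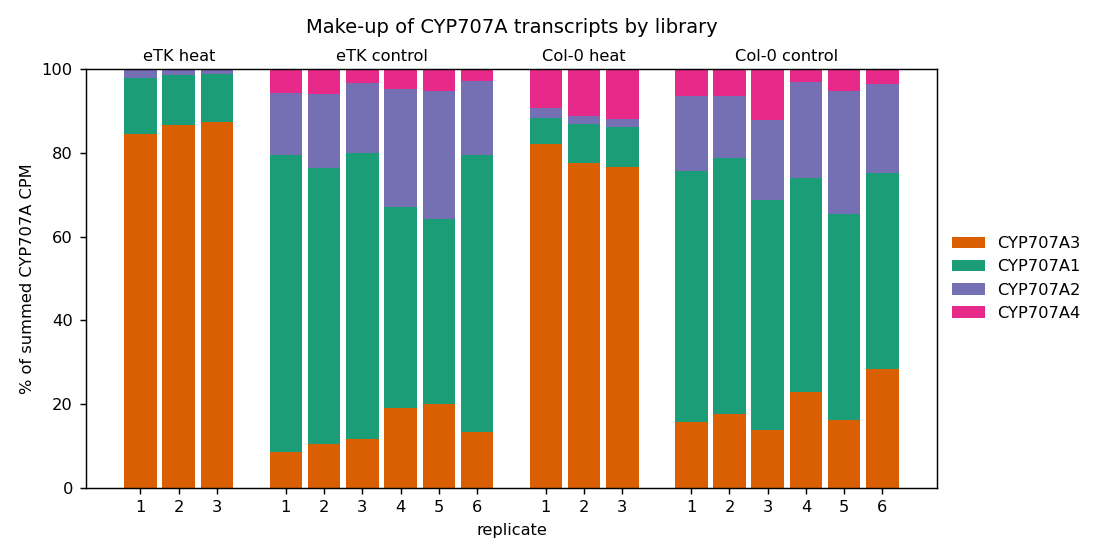
Percent of the summed CYP707A CPM contributed by each gene, 1 bar per library, by group, with the replicate number below. CYP707A3 fills most of each heat bar, at 76.7% to 87.3%, and the CYP707A4 share is visible in Col-0 heat bars and not in eTK heat bars.

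Control libraries of the batches differed in NCED3, CYP707A2 and CYP707A3 in each line. These were 3 of 7 members tested in eTK, where 28.2% of all genes passed (15.6% higher and 12.6% lower), and 3 of 7 in Col-0, where 35.1% passed (19.9% higher and 15.2% lower). NCED3 was lower in batch 2, by a log2 change of -0.94 ± 0.20 in eTK (edgeR adjusted p = 0.00358) and -0.69 ± 0.22 in Col-0 (adjusted p = 0.0276). CYP707A2 was higher in batch 2, by 0.55 ± 0.17 in eTK (adjusted p = 0.0296) and 0.81 ± 0.18 in Col-0 (adjusted p = 0.00301). CYP707A3 was higher as well, by 0.72 ± 0.21 in eTK (adjusted p = 0.0203) and 0.81 ± 0.21 in Col-0 (adjusted p = 0.00851). The batch effect differed between the lines in 0 of 7 members by edgeR, by DESeq2 and at an unadjusted p under 0.05 (5.95% of all genes by edgeR, 2.39% higher and 3.56% lower, a share that single libraries move by more than 1.5 times). Within batch 1, the heat changes of NCED3 and CYP707A3 were 1.78 and 5.81 in eTK and 3.46 and 4.48 in Col-0. In eTK, leaving out control replicate 1, 2, 4 or 5 ended the calls of both CYP707A2 and CYP707A3, and leaving out replicate 3 ended that of CYP707A2.

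**Figure D4:**
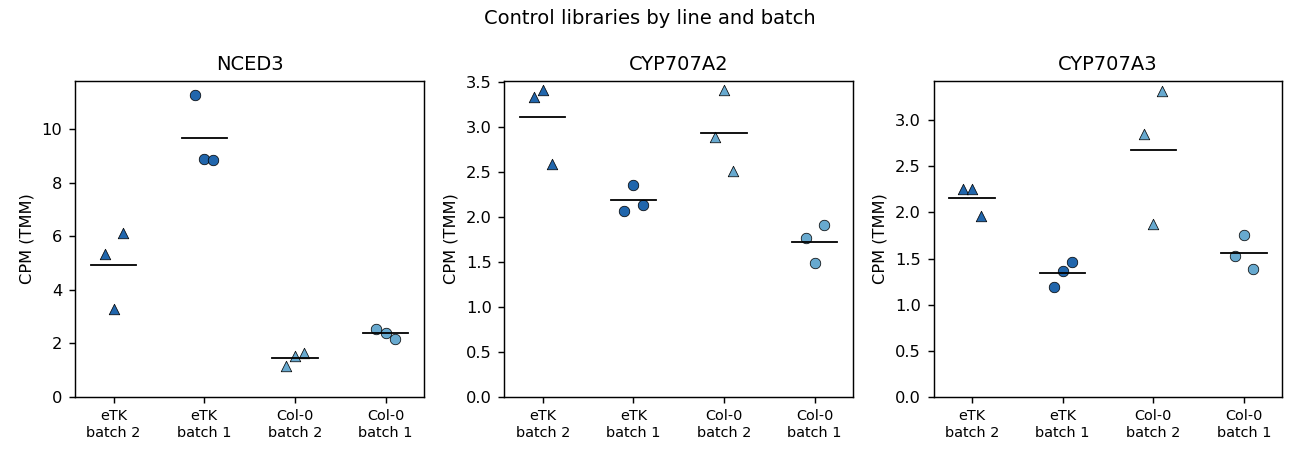
CPM of NCED3, CYP707A2 and CYP707A3 in control libraries, by line and batch, with a line at each mean (n = 3). NCED3 is lower and CYP707A2 and CYP707A3 are higher on average in batch 2 in both lines.

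Other genes of the pathway were grouped by step, and values below are log2 changes that passed the edgeR test unless stated. Over all tested genes, heat raised 27.0% and lowered 28.7% in eTK, and raised 31.2% and lowered 32.4% in Col-0. Counts in these short lists are therefore read as descriptions of single genes. Of 11 genes of carotenoid precursor synthesis, 3 rose with heat in eTK, led by BCH1 (0.76) and ZDS (0.46), and 8 rose in Col-0, led by BCH1 (1.04) and ZDS (0.69), although with library size alone the Col-0 counts were 1 higher and 7 lower and ZDS turned to -0.03. BCH1 encodes a carotene hydroxylase and ZDS a carotene desaturase. The heat responses differed for PDS3 (-0.46) and LYCB (-0.39), a desaturase and a cyclase gene, which turned to 0.17 and 0.24 with library size alone. In controls 4 were higher in eTK, led by BCH2 (0.90) and PDS3 (0.35). In heat LUT2 was higher in eTK (0.31) and 5 genes were lower, led by PSY (-0.41) and LUT1 (-0.41), which turned to 0.23 and 0.22 with library size alone. Several of these calls are weak. BCH2 in controls was 0.19 in batch 2 (edgeR adjusted p = 0.481) and 1.75 in batch 1, was at its lowest, 0.59, without eTK control replicate 1, and lost its call without Col-0 control replicate 1, 2 or 3, and PDS3 in controls was 0.24 in batch 1 (adjusted p = 0.0691). In heat the LUT2 call was lost without eTK heat replicate 2 or 3 or Col-0 heat replicate 2 or 3. The LUT1 call was lost without eTK heat replicate 1 or 2 or Col-0 heat replicate 1, the last giving -0.24, and with the replicate block (adjusted p = 0.0522).

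Of 4 genes of the xanthophyll steps, 3 fell with heat in each line and none rose. ABA1, the zeaxanthin epoxidase gene, changed by -1.68 in eTK and -1.42 in Col-0, followed by ABA4 in eTK (-0.44) and NXD1 in Col-0 (-0.32). ABA1 was higher in eTK than in Col-0 in controls (0.64) and in heat (0.39), as was ABA4 in controls (0.35). Of 6 genes of the cytosolic steps, AAO3, the main abscisic aldehyde oxidase gene of leaves, fell by -1.31 in eTK and -1.48 in Col-0, AAO2 fell in eTK (-0.28), and AAO4 rose in Col-0 (1.39). AAO4 was far higher in eTK in controls (5.58) and in heat (4.26). ABA2, a dehydrogenase gene, was also higher in eTK controls (0.47), while AAO1 was lower in eTK in controls (-0.79) and in heat (-0.81), and AAO3 in controls (-0.25). Of these, AAO4 with heat in Col-0 was 0.70 without Col-0 heat replicate 1, 0.68 with library size alone and 1.21 in batch 1 only, none of which passed, and AAO2 in eTK did not pass without eTK heat replicate 1. AAO3 in controls lost its call in 10 of 18 fits without 1 library and with the replicate block (edgeR adjusted p = 0.0543), and was -0.14 in batch 1 (adjusted p = 0.483). With library size alone AAO1 in heat was -0.17 (adjusted p = 0.269). ABA2 in controls was 0.36 in batch 1 (adjusted p = 0.0893).

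Of 3 tested dioxygenase genes outside the NCED group, CCD4 fell with heat by -0.64 in eTK and -0.77 in Col-0, CCD8, a strigolactone synthesis gene, rose in eTK (1.04), and CCD1 rose in Col-0 (0.32) but was at -0.40 with library size alone. CCD4 was higher in eTK in controls (0.91) and in heat (1.04), and CCD8 in heat (1.59). Of 7 genes of ABA conjugation and release, 2 rose and 2 fell in each line. The glucosidase genes BGLU33 and BGLU18, which free ABA from its glucose ester, fell by -2.29 and -1.50 in eTK and by -3.36 and -2.13 in Col-0. The glucosyltransferase genes UGT75B1 and UGT71B7 rose by 1.12 and 0.26 in eTK and by 0.37 and 0.46 in Col-0, where with library size alone they were at -0.35 and -0.26. The responses differed for 3 genes, led by BGLU33 (1.07) and UGT75B1 (0.75), with BGLU18 the third and in the same direction. In controls UGT75B1 was higher in eTK (0.37), and UGT71B6 (-0.51) and UGT71B7 (-0.23) were lower. In heat 4 genes were higher in eTK, which were BGLU33 (1.33), BGLU18, UGT75B1 and UGT71B8. UGT71B7 was lower (-0.43), turning to 0.21 with library size alone. UGT71B8 had 0.0302 to 0.132 CPM in eTK heat and 0 in the Col-0 heat libraries, so no fold is given. The UGT71B7 call with heat in eTK was lost in 10 of 18 fits without 1 library and with the replicate block (edgeR adjusted p = 0.0716). In controls UGT71B7 lost its call in 10 of 18 such fits and with the replicate block (adjusted p = 0.0698) and was -0.03 in batch 2, UGT71B6 lost it in 8 of 18 and was -0.13 in batch 1, and UGT75B1 was 0.21 in batch 1 (adjusted p = 0.135). The difference of responses of BGLU33 did not pass without eTK heat replicate 2 or Col-0 heat replicate 2 or 3. CCD8 with heat in eTK did not pass without eTK heat replicate 1, nor CCD4 without eTK heat replicate 3, and CCD4 in controls was 0.65 in batch 2 (adjusted p = 0.0867).

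Of 6 ABA transport genes, 2 rose and 2 fell with heat in eTK, and 1 rose and 4 fell in Col-0. The exporter gene DTX50 rose by 2.74 in eTK and 0.79 in Col-0, and ABCG25, another exporter gene, rose by 1.51 in eTK and fell by -0.44 in Col-0, with differences between the responses of 1.95 for each. The importer gene ABCG40 fell by -1.39 in eTK and -1.54 in Col-0, as did ABCG30 in eTK (-0.48) and Col-0 (-0.81) and ABCG31 in Col-0 (-0.94). The ABCG30 call in eTK was lost in 8 of 18 fits without 1 library and with the replicate block (edgeR adjusted p = 0.054), the ABCG40 call in eTK without eTK heat replicate 1, and the ABCG31 call without Col-0 heat replicate 1. With library size alone DTX50 in Col-0 was 0.08 (adjusted p = 0.744). In heat 3 genes were higher in eTK, led by ABCG25 (2.30) and DTX50 (1.84), with ABCG31 the third. ABCG25 was also higher in controls (0.34), though it passed within neither batch 2 (0.41) nor batch 1 (0.28). NPF4.6 was lower in eTK in controls (-0.54) and in heat (-0.60, but 0.04 with library size alone). Of 3 known regulators of NCED3, ATAF1, a NAC factor, rose by 4.11 in eTK and 6.31 in Col-0, a difference of -2.20, and NGA1, a factor that binds the NCED3 promoter, fell by -1.07 in eTK and -2.62 in Col-0, a difference of 1.56. WRKY57 rose by 0.45 in eTK and 0.34 in Col-0, but was at -0.38 in Col-0 with library size alone. In controls ATAF1 was higher in eTK (0.19, but 0.13 and not past the test in batch 2) and NGA1 lower (-0.79), and in heat ATAF1 was lower in eTK (-2.01) and NGA1 higher (0.76).

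Of 11 ABA-induced marker genes, 6 rose with heat in each line, led by the PP2C phosphatase genes HAI2 (3.33) and HAI1 (3.00) in eTK and by HAI2 (3.08) and the dehydrin gene COR47 (2.71) in Col-0. The responses differed for HAI1 (1.41), ABI1 (0.50), COR47 (-1.92) and ABI2 (-0.83). The ABI1 call was lost with the replicate block (edgeR adjusted p = 0.0643), in batch 1 only (0.26, adjusted p = 0.228) and without eTK heat replicate 1 or 3 or Col-0 heat replicate 1 or 2. The ABI2 call was lost with library size alone (-0.20, adjusted p = 0.46) and without eTK heat replicate 3 or Col-0 heat replicate 2 or 3. In controls 10 of 11 were higher in eTK (13.4% of all tested genes), led by RD29B (3.60) and RAB18 (2.38), with a median log2 change of 1.29. In heat 9 were higher (23.3% of all tested genes), led by RD29B (4.12) and RAB18 (3.67). COR47 was lower in heat (-1.14, but -0.51 and not past the test with library size alone). The list was chosen with earlier results of these data known, so these counts describe single genes. For the control difference, 5 of 11 passed within batch 2 and 10 within batch 1, and RAB18 was 1.27 in batch 2 and 3.39 in batch 1. Tested directly, the difference between the lines was smaller or more negative in batch 2 for RD29A, ABI1 and COR47. These were 3 of 11, where 3.56% of all tested genes were lower, and RAB18 was not among them. Within eTK controls 6 of the 11 were lower in batch 2 than in batch 1 and 1 was higher. Among the 6 seed markers, 5 were also higher in eTK controls (median 3.17), while in heat 2 were higher in eTK and 1 lower (median -0.93). The part of seed markers in the result was not tested.

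**Figure D5:**
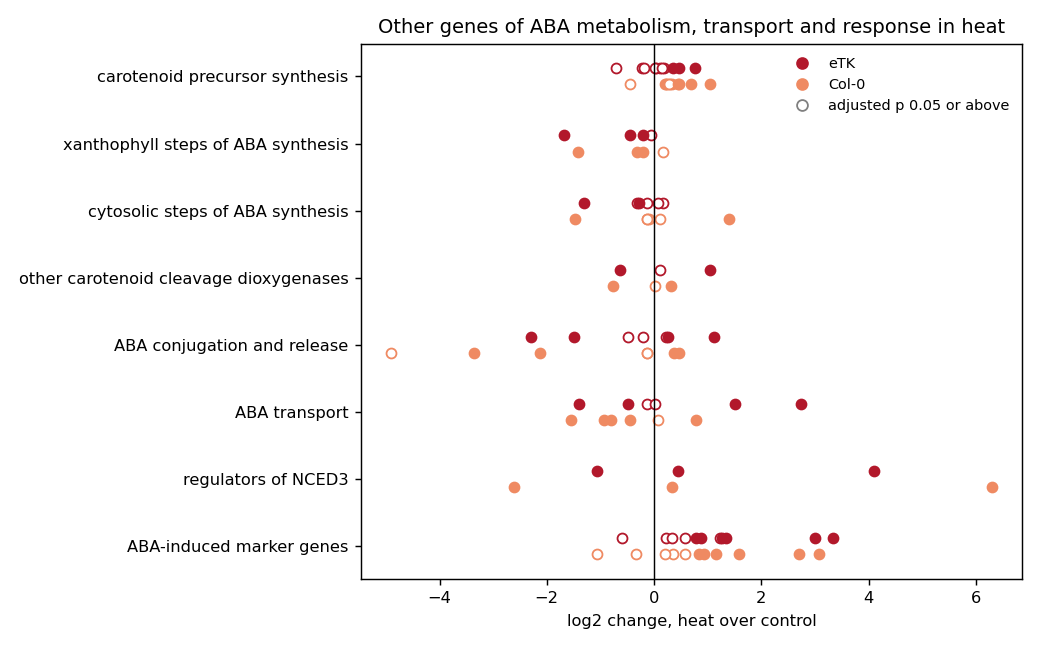
Log2 change with heat of each tested gene of the other steps, with eTK above Col-0 in each list and open symbols where the adjusted p was 0.05 or above. ATAF1 is the farthest point on the right in both lines, at 4.11 in eTK and 6.31 in Col-0, and ABA1, AAO3, BGLU33 and BGLU18 lie to the left in both.

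Across the 18 libraries, the genes whose log2 CPM followed the members most closely were found by Pearson's r, as a description over libraries that share groups and batches. They were OEP16-1 (0.967) and AT3G15780 (0.966) for NCED3, NAC075 (0.941) and AT5G67390 (0.941) for CYP707A1, CSD2 (0.954) and APRR2 (0.953) for CYP707A2, AT2G47020 (0.995) and MYBR1 (0.991) for CYP707A3, and AT4G14190 (0.983) and AT1G62950 (0.976) for CYP707A4. Among the members, r was 0.844 for CYP707A4 and NCED9, 0.795 for CYP707A3 and NCED3, and -0.786 for CYP707A4 and CYP707A1.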

How the data were processed

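Read counts per gene were deposited by the authors as 1 table of 18 Arabidopsis libraries. Per the submitters' processing notes, fastp 0.24.0, STAR 2.7.9a and featureCounts of Subread 2.0.6 were used, and the genome build and strand setting are not given in the sources used here. Most non-zero counts were even (75.4% to 83.3% per library), so both mates of a pair may have been counted, and counts halved and rounded were tried as an alternative. Members and gene lists were chosen with earlier results of these data known. The 22696 of 27655 genes that passed filterByExpr were fitted with edgeR 4.0.16 (TMM, robust quasi-likelihood, terms for the 4 groups and the batch), and batches were compared in a fit of the 12 control libraries (22443 genes). SE is the log2 change divided by the square root of F, and calls are Benjamini-Hochberg adjusted p below 0.05 over all tested genes. On simulated counts for heat in Col-0 (22696 genes), 88% of log2 changes of 1 and 98% of 2 were recovered. Only 200 genes were changed there, all with a mean above 1 CPM, in equal numbers up and down. These shares therefore do not cover genes at lower levels, such as NCED2, NCED5 and NCED9, or the scaling of a response as wide as in Col-0. All 36 of 36 replicate pairs differed beyond sampling noise. The named pathway genes are up to 2 called genes per direction with the largest change, per list and comparison. Alternatives were DESeq2 1.42.0, RLE factors, library size alone, no filter, no batch term, single batches, a replicate block and leaving out each library. Promoters and exon lengths came from RefSeq TAIR10.1.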

Additional observations from a re-analysis of the deposited data

Results flagged for a closer look

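The difference between the heat responses of eTK and Col-0 passed the edgeR test for 5 of 8 members, at log2 values of -1.57 for NCED3, -2.82 for NCED9, 1.10 for CYP707A1, 1.38 for CYP707A3 and -5.28 for CYP707A4. NCED9 and CYP707A4 fell in eTK and rose in Col-0, NCED3 and CYP707A3 rose in both lines, and CYP707A1 fell in Col-0 and was at 0.36 in eTK (adjusted p = 0.132). Col-0 control replicate 3 stood apart in CYP707A4, at 1.22 CPM, with a gap to the nearest of the other 5 controls of 0.68 of the group's range. Outlying libraries were looked for in 16 groups of control libraries, and chance alone marks about 1 in 20 groups.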

How the results depend on the processing

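The members called for heat in each line, for the difference of the heat responses, for eTK against Col-0 in heat and for batch 2 against batch 1 in Col-0 controls stayed within 1.5 times their number under every alternative run. For eTK against Col-0 in control, 2 members became 1 with no batch term, in batch 2 only and with the replicate block, and 1 to 2 when single libraries were left out. For the batches of eTK controls the count was 1 to 4 when single libraries were left out. Without replicate 4 NCED5, which did not pass the filter of the main batch fit, was one of 2. With no filter and all libraries, NCED5 was at -1.22 there (edgeR adjusted p = 0.39). For the difference of batch effects the count was 0 to 1, the 1 being CYP707A1 without eTK control replicate 6 (-0.80, adjusted p = 0.009). Whether replicate numbers pair the libraries is not in the labels. For this, log2 CPM was taken as the deviation from the mean of each group and batch. Correlations of these deviations between same-numbered libraries exceeded 0.1 in 3 of 21 cases. They ranged from -0.217 (replicate 1 of eTK and Col-0 heat) to 0.232 (replicate 6 of the eTK and Col-0 controls). No reference level was set for them, so they cannot exclude pairing. The replicate block took CYP707A1 in controls to 0.40 (edgeR adjusted p = 0.0804) and changed no other member's call. CYP707A1 in controls ranged from 0.31 to 0.54 (adjusted p = 0.00709 to 0.152) when single libraries were left out, and CYP707A3 in controls passed without Col-0 control replicate 5 (-0.35, adjusted p = 0.00798). In the batch comparisons, the NCED3 call in Col-0 was lost without control replicate 1, 2, 4 or 5, the CYP707A2 call in eTK without replicate 1, 2, 3, 4 or 5, and the CYP707A3 call in eTK without replicate 1, 2, 4 or 5, and CYP707A1 in eTK passed without replicate 6 (-0.74).

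Among members, the directions that turned belonged to values that did not pass the test. Over the libraries left out in turn, NCED5 with heat ranged from -1.44 to 0.12 in Col-0 and from -0.24 to 1.01 in eTK, NCED2 with heat in eTK from -0.81 to 0.02, and the CYP707A2 difference of responses from -0.08 to 0.34. In controls NCED5 ranged from -0.21 to 0.38 and CYP707A4 from -0.16 to 0.13. Between batches, NCED9 in Col-0 ranged from -0.06 to 0.45, CYP707A1 in Col-0 from -0.01 to 0.09, NCED2 in eTK from -0.43 to 0.74, and the CYP707A3 difference of batch effects from -0.32 to 0.09. In batch 1 only, NCED2 in controls was 0.26, and in batch 2 only NCED9 was -0.04, CYP707A4 0.19 and HSFA1E -0.02. With library size alone, values in Col-0 heat turned for ZDS (-0.03), CCD1 (-0.40), UGT71B7 (-0.26), UGT75B1 (-0.35) and WRKY57 (-0.38), the difference of responses for PDS3 (0.17), LYCB (0.24) and HSFA1D (0.12), and eTK against Col-0 in heat for PSY (0.23), LUT1 (0.22), UGT71B7 (0.21), NPF4.6 (0.04) and HSFA1A (0.30). With no batch term, UGT75B1 (-0.03), WRKY57 (-0.13) and HSFA1B (0.05) turned in Col-0 heat and WRKY57 (-0.01) in eTK heat. The cause of these changes was not tested. Over all genes, the 1335 calls for the difference of batch effects became 476 to 3323 when single libraries were left out, 2756 with DESeq2 and 2936 with the replicate block, so that background share is loose. The 6171 calls for eTK against Col-0 in control became 3571 in batch 2 only, and with library size alone the calls became 15347 in place of 5707 for the difference of responses and 16939 in place of 10520 for eTK against Col-0 in heat. Low counts limit NCED2, NCED5, NCED9 and CYP707A4 in eTK heat.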
